A study of Homo sapiens with 12 samples.

Results

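The mRNAs of 10 genes for protein import into mitochondria, TIMM22 among them, were followed in HepG2 cells during insulin stimulation. The genes were taken by name and are 10 of the 26364 genes in the count table, and all 10 passed the filter on low counts. They are TIMM22, TIMM9, TIMM10, TIMM13, TIMM44, TIMM50, TIMM17A, TOMM20, TOMM22 and TOMM40. HepG2 is an established line from a human liver carcinoma. RNA-seq was made at 0, 5, 10, 30 and 240 min of insulin, with 2 libraries at each time and 10 in all. No library without insulin was taken at the later times, so changes with insulin and with time in culture cannot be told apart. The insulin receptor (IR) was mapped on chromatin by ChIP-seq of 1 library of doubly fixed cells. All libraries came from HepG2 cells grown in EMEM with serum, and the study's insulin protocol moves such cells to EMEM without supplements. That protocol then gives physiologic or pathologic insulin for 2 days and washes it out before acute treatment. The titles of the RNA libraries differ in the time of insulin and the replicate number alone. The treatment text of every RNA library, the 0 min libraries included, names 3 nM insulin for 5 min after a period in EMEM, so the dose at each time rests on that text and the time on the titles. The text of the ChIP library names stimulation with 3 nM insulin after a washout. The texts on library preparation describe RNA for the ChIP libraries and DNA for the RNA libraries, and the titles and the files decided which is which. The study's methods describe the RNA-seq as a single experiment on biologically independent samples. The labels do not say how the 2 libraries of a time were set apart, so p-values measure the spread between these samples within that experiment.

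Most mitochondrial proteins are made in the cytosol and imported. The TOM complex of the outer membrane receives them, small TIM chaperones carry hydrophobic proteins across the intermembrane space, the TIM22 complex inserts carrier proteins into the inner membrane, and the TIM23 complex moves proteins with a presequence into the matrix. The liver is rich in mitochondria, and its nutrient metabolism is under the control of insulin.

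The libraries held 18347109 to 45005769 reads counted on genes, of which each member took 230 to 15962 per library. The hepatocyte markers ALB, AFP, APOA2, TTR and HNF4A were all high (ALB at 13890 to 20350 CPM, which is counts scaled to the size of the library), and PTPRC of leukocytes was at 0 in all 10 libraries. DCN of fibroblasts had at most 1 count, and PECAM1 of endothelium had 1.75 to 3.00 CPM. In such bulk samples, a change in the number of cells of a kind and a change in RNA per cell cannot be told apart.

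Peaks of IR lay within 5 kb of 3 of the 10 members, TIMM22, TIMM13 and TOMM40. Among all 13852 genes tested for expression, 15.7% had such a peak, and among the 8674 with a mean CPM of at least that of the lowest member 18.1% had one. With 10 members, the count was not tested against these shares. In all 3 the 300 bases around the gene's start in the RefSeq promoter table, 250 before and 50 after it, lay wholly inside the peak, and in the other 7 members no base did. The sequences below are the parts of those windows in front of the transcripts, written 5′ to 3′ on the strand of the gene, and they are shown because they are the promoters of the family that lay under an IR peak. They are credited to RefSeq (table build GRCh38.p14) and each was placed by its single exact match in GRCh37, the build of the peaks. TIMM22 runs over chr17:900119-900356 on the plus strand and TOMM40 over chr19:45394261-45394476 on the plus strand. For TIMM13, whose deposited gene model begins further upstream, only the last 30 bases are given, chr19:2427585-2427614 on the minus strand. Capitals mark matches to 3 motifs on either strand, GCGCANGCG of NRF1, CCGGAAG of ETS factors and GGGCGG of SP/KLF factors, which do not overlap here. In the TOMM40 line the last 4 capitals are the first bases of a match that continues beyond the line.
TIMM22: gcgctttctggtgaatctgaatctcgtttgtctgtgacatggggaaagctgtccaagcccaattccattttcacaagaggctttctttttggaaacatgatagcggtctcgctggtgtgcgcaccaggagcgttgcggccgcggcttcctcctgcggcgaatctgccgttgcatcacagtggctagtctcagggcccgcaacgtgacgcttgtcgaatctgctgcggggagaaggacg
TIMM13: gtggtgccccGGGCGGcccgCTTCCGGcgc
TOMM40: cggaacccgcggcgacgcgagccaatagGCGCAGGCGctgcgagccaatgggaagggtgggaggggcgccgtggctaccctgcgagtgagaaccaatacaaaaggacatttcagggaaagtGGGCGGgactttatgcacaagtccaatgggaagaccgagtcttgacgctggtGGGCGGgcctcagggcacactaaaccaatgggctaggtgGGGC

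The TIMM22 line holds none of the 3 motifs. Its single match in the 300 bases was GGGCGG on the opposite strand, 24 to 29 bases after the start. TIMM13 held all 3 motifs, with GCGCANGCG at 16 to 24 bases after the start, beyond the printed stretch. TOMM40 held GCGCANGCG once and GGGCGG at 3 places. GCGCANGCG was found in 4 of the 10 members (TIMM9, TIMM13, TOMM20 and TOMM40) and in 7.52% of the 35116 promoters in the table. CCGGAAG was found in 4 members (TIMM10, TIMM13, TOMM20 and TOMM22) and in 10.3% of promoters. GGGCGG was found in 8 members, all but TOMM20 and TOMM22, and in 44.95% of promoters. The 300 bases held 25 CpG dinucleotides in TIMM22, 42 in TIMM13 and 30 in TOMM40, which is more than in 68.0%, 94.2% and 77.6% of promoters. The members without a peak held 17 (TIMM9) to 35 (TOMM20), and the median of all promoters was 14. These matches are letters in a window, and binding of the factors was not measured.

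The TIMM22 peak, chr17:899963-900520 in hg19, had a score of 182, on the peak caller's scale where larger is stronger, and ranked 543 of 1971 peaks. It covered the gene's start, from position -394 to position 163 relative to it, and lay on the promoter and an exon of TIMM22, with no other annotated gene beneath it. The gene itself lies at chr17:900357-905390 on the plus strand. The TIMM13 peak, chr19:2427389-2427910, had a score of 279 (rank 418). It lay from 4 to 525 bases inside the deposited gene model, at chr19:2425622-2427914 on the minus strand, and overlapped exons of TIMM13 and of LMNB2. It held 2 of the TIMM13 starts in GENCODE. The TOMM40 peak, chr19:45393551-45394910, had a score of 381 (rank 329), the highest of the 3, and reached from position -926 to position 433 around the start of a gene at chr19:45394477-45406946 on the plus strand. The deposited annotation gave this last peak to a neighbouring transcript, CTB-129P6.4, so by nearest gene alone 2 members had a peak. All 3 scores were above the median of the list, 79.0, and the same 3 members had a peak with margins of 1 kb and 20 kb. For the other 7 members the nearest peak was 89.05 (TIMM50) to 879.1 kb (TOMM22) away. With 1 ChIP library there was no replicate check of any peak.

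**Figure D1:**
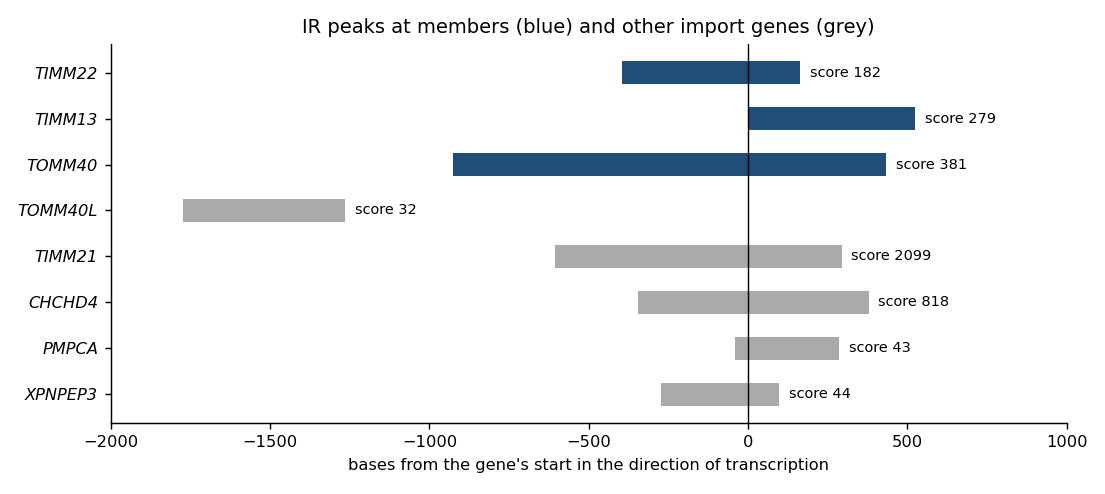
Position of the IR peak at the members with one (blue) and at the other import genes with one (grey), in bases from the start of the deposited gene model along the direction of transcription, with the peak's score. The TIMM22 and TOMM40 peaks cover the gene's start, and the TIMM13 peak begins 4 bases inside the gene.

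TIMM22, the channel-forming subunit of the carrier translocase of the inner membrane, was the member with the lowest mean level per length. It had 23.6 TPM, a level scaled for gene length and library size, on average over the 10 libraries (range 19.9 to 30.2). In order of mean TPM the others were TOMM20 (307), TOMM22 (163), TOMM40 (77.8), TIMM17A (75.0), TIMM9 (72.2), TIMM10 (46.0), TIMM50 (32.3), TIMM44 (32.3) and TIMM13 (29.7). The ranges of TOMM20 and TOMM22 were apart from each other and from all the rest, and TIMM10 was apart from its neighbours too. TOMM40, TIMM17A and TIMM9 overlapped one another in that order, as did TIMM50, TIMM44, TIMM13 and TIMM22, so neighbours within these runs are not separated by the spread over libraries. GENCODE lists pseudogenes named for TIMM9 (3), TOMM20 (4), TOMM22 (6) and TOMM40 (3), with which these genes may share reads, so their levels are less certain. SNORA14B lies within TOMM20 on the same strand. KIAA0586 and TOMM20L overlap TIMM9, and TMPRSS9 overlaps TIMM13, on the opposite strand, and the counting used strand.

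**Figure D2:**
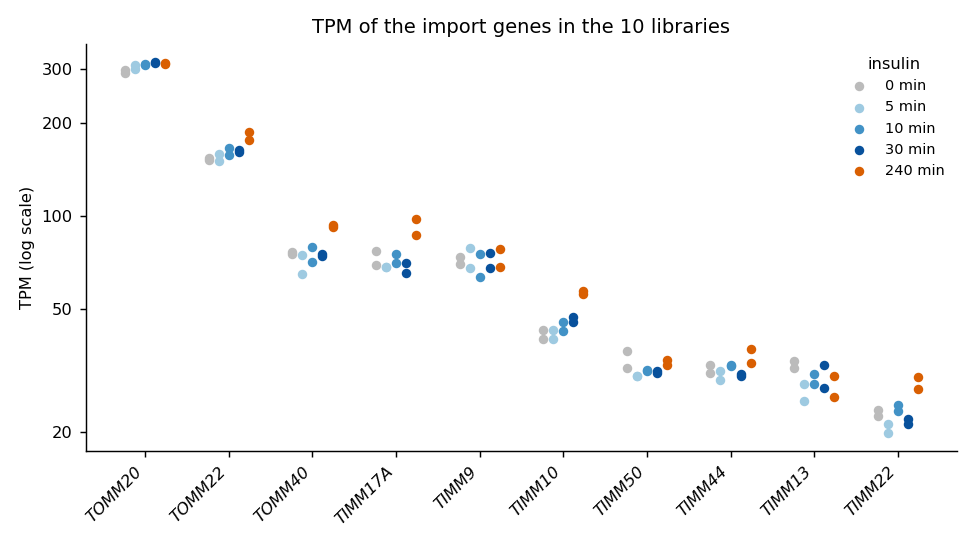
TPM of each member in the 10 libraries on a log scale, 1 point per library, coloured by time of insulin. TOMM20 and TOMM22 stand above the other members in all libraries, and TIMM22 is lowest by its mean of 23.6 TPM.

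In the first 30 min no member passed the test. The counts of members with an adjusted p under 0.05 in edgeR (quasi-likelihood, Benjamini-Hochberg over all genes) were 0 at 5 min, 0 at 10 min and 0 at 30 min, beside 0.00%, 0.137% and 0.332% of all genes tested. At an unadjusted p under 0.05 there were 2 members at 5 min and 0 at 10 and 30 min, beside 14.3%, 5.13% and 8.12% of all genes tested, so that the 2 are a share near the background. DESeq2 also called 0 at each of these times. The 2 were TIMM13, a chaperone subunit, and TIMM50, a receptor of the TIM23 complex. TIMM13 had 27.5 and 26.0 CPM (0 min) and 22.6 and 20.5 (5 min), a log2 difference of -0.30 (95% interval -0.49 to -0.11, adjusted p = 0.243). TIMM50 had 38.7 and 33.6 CPM (0 min) and 31.1 and 31.6 (5 min), a log2 difference of -0.19 (adjusted p = 0.274). In both genes the 5 min libraries lay below the 0 min libraries without overlap. This was so in 6 members and the reverse in 1, and the share of all genes separated in this way was not computed. Without the filter on low counts TIMM13 passed at 5 min (adjusted p = 0.0441), in a fit that called 144 of all genes at that time, 87 of them lower.

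TIMM22 had 16.2 and 15.2 CPM (0 min), 14.2 and 13.5 (5 min), 15.8 and 16.8 (10 min), 14.4 and 14.6 (30 min), and 18.5 and 19.7 (240 min). The 240 min libraries were the highest of the 10, and the 5 min libraries the lowest. The log2 difference from 0 min was -0.17 at 5 min (95% interval -0.35 to 0.011, adjusted p = 0.380), 0.062 at 10 min (-0.11 to 0.24, adjusted p = 0.982) and -0.11 at 30 min (-0.28 to 0.072, adjusted p = 0.787). None of the 3 passed the test. ERCC spike-ins took 1.73% of the counts in the first 10 min library and 2.36%, the highest of the 10, in the second. With libraries scaled by these spike-ins the 10 min value was -0.27, the opposite sign, and it was not called. The median of all genes was -0.33 in that fit at 10 min. TIMM22 thus stood 0.052 above the median gene there and 0.063 above it in the fit with TMM scaling. A change of scaling moves all genes by nearly the same amount, so these values had to be close and add no support.

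At 240 min TIMM22 rose by 0.29 on the log2 scale (SE 0.083, 95% interval 0.11 to 0.46), or 22.01%, from 15.7 ± 0.67 to 19.1 ± 0.85 CPM (SD, n = 2). The adjusted p was 0.00919 in edgeR's quasi-likelihood test. The call did not hold without certain libraries. Without the second 0 min library the value was 0.23 (adjusted p = 0.121), and without the second 240 min library 0.24 (adjusted p = 0.0681). Scaled by the spike-ins it was 0.16 (adjusted p = 0.688), with the median of all genes at -0.12 in that fit. TIMM22 stood 0.28 above the median gene there and 0.29 above it in the TMM fit. These values also had to be close, since scaling moves all genes nearly alike, and they do not restore the call. The spike-ins took 1.59% to 2.36% of the counts of the libraries, with 1.586% and 1.595% at 0 min and 1.65% and 1.92% at 240 min. Against 30 min, a comparison with the same 240 min libraries and other controls, TIMM22 was higher by 0.39 (SE 0.086, adjusted p = 0.00126).

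Of the 10 members, 6 passed the test at 240 min against 0 min, 5 higher and 1 lower, and 4 did not. Among all genes tested 41.0% passed, 20.6% higher and 20.4% lower. The higher members were TIMM22, TIMM10, TIMM17A, TOMM40 and TOMM22, and the lower one was TIMM13. The median of the 10 log2 differences was 0.16, and that of all genes -0.0026. Both 240 min libraries lay above both 0 min libraries in 6 members, where 34.8% of all genes did so, and below in 1 member, where 34.9% of all genes did so. With spike-in scaling no member passed (0 called, and 1059 of all genes with 31.3% of them higher, against 50.2% higher of the 5676 called with TMM). Without the second 0 min library 3 members passed, TIMM10, TOMM22 and TIMM13.

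**Figure D3:**
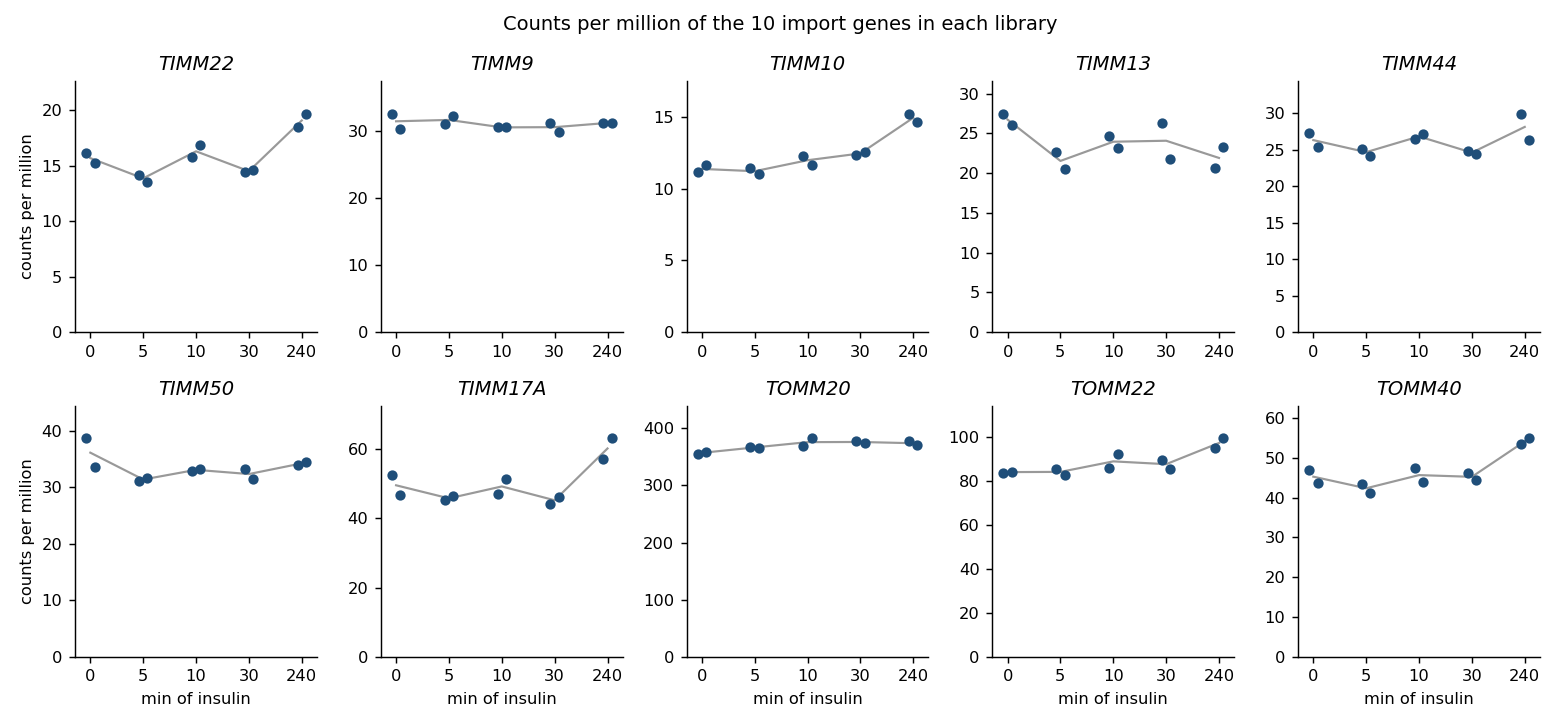
CPM of each member in each library (points) against time of insulin in min, with a grey line through the means of the 2 libraries and each axis starting at 0. TIMM22, TIMM10, TIMM17A, TOMM22 and TOMM40 have their highest libraries at 240 min, and TIMM13 has its highest at 0 min.

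**Figure D4:**
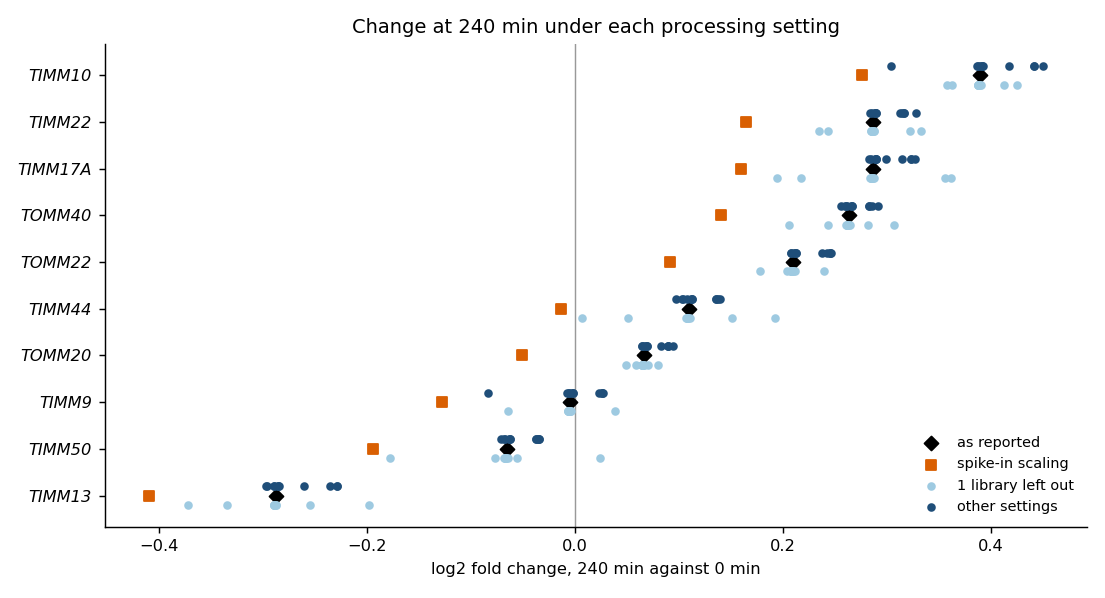
Log2 fold change of each member at 240 min against 0 min as reported (black), with spike-in scaling (orange), with 1 library left out (light blue) and in the other settings (dark blue). The 5 members that rose stay above 0 and TIMM13 stays below 0 in all settings drawn, with spike-in scaling lower than the reported value in each of the 10 members.

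In the TOM complex, the general entry gate, 2 of 3 members rose at 240 min. TOMM40, the channel itself, had 46.8 and 43.7 CPM (0 min), 43.4 and 41.2 (5 min), 47.3 and 43.96 (10 min), 46.1 and 44.3 (30 min), and 53.4 and 54.8 (240 min). The 240 min libraries were above all 8 others, and TOMM40 rose by 0.26 on the log2 scale (SE 0.060, adjusted p = 0.00168). TOMM22, a receptor and organizer of the complex, had 83.8 and 84.2 CPM (0 min), 85.5 and 82.7 (5 min), 85.7 and 92.1 (10 min), 89.6 and 85.6 (30 min), and 95.2 and 99.3 (240 min). Again the 240 min libraries were highest, and TOMM22, at chr22:39077954-39080766, rose by 0.21 (SE 0.052, adjusted p = 0.00310). TOMM20, a receptor for presequences, ranged from 356 to 382 CPM over all libraries. Its difference at 240 min was 0.067 (95% interval -0.029 to 0.16, adjusted p = 0.258), with both 240 min libraries above both 0 min libraries. TOMM40 missed the threshold without the second 0 min library (adjusted p = 0.0532).

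Of the small chaperones of the intermembrane space, 1 rose, 1 fell and 1 did not pass the test. TIMM10, which forms a chaperone with TIMM9 for carrier proteins, had 11.1 and 11.6 CPM (0 min), 11.4 and 11.01 (5 min), 12.3 and 11.7 (10 min), 12.4 and 12.6 (30 min), and 15.2 and 14.7 (240 min). Both 240 min libraries were above all others, and TIMM10, at chr11:57295936-57298232, rose by 0.39 (SE 0.089, adjusted p = 0.00161), the largest change of the 10 members. Its partner TIMM9 had 29.9 to 32.6 CPM over all libraries and differed by -0.0042 at 240 min (95% interval -0.14 to 0.13, adjusted p = 0.965). The interval of TIMM9 does not reach the estimate of TIMM10, and the difference between the genes was not tested. TIMM13, which forms a chaperone with TIMM8A, had 24.7 and 23.2 CPM (10 min), 26.4 and 21.8 (30 min), and 20.6 and 23.2 (240 min), with the 2 libraries at 30 min far apart. It fell by 0.29 at 240 min (SE 0.090, adjusted p = 0.0153) from 26.7 ± 1.04 to 21.9 ± 1.88 CPM (SD, n = 2). The call of TIMM13 was lost on the TPM values with limma (adjusted p = 0.127), without the first 0 min library (adjusted p = 0.0754) and without the first 240 min library (adjusted p = 0.191).

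In the TIM23 complex 1 of 3 members rose at 240 min. TIMM17A, which lines the presequence channel with TIMM23, had 52.4 and 46.7 CPM (0 min), 45.2 and 46.3 (5 min), 47.0 and 51.4 (10 min), 44.2 and 46.2 (30 min), and 57.3 and 63.1 (240 min). The 240 min libraries were again the highest of the 10, and TIMM17A, at chr1:201924619-201939789, rose by 0.29 (SE 0.067, adjusted p = 0.00200). Without the second 0 min library it missed the threshold (adjusted p = 0.0797). TIMM44, which tethers the import motor, had 27.2 and 25.4 CPM (0 min) and 29.9 and 26.3 (240 min), and these groups overlapped. Its difference was 0.11 (95% interval -0.045 to 0.26, adjusted p = 0.250). TIMM50 had 34.0 and 34.5 CPM (240 min), between the 2 libraries at 0 min, and its difference was -0.065 (95% interval -0.21 to 0.081, adjusted p = 0.483).

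Against 30 min, 6 members were higher at 240 min and 0 lower, beside 38.2% of all genes called, 19.8% higher and 18.4% lower. They were TIMM17A (0.41 on the log2 scale, adjusted p = 9.38e-05), TIMM22 (0.39), TIMM10 (0.27, adjusted p = 0.0260), TOMM40 (0.26, adjusted p = 0.00254), TIMM44 (0.20, adjusted p = 0.0464) and TOMM22 (0.15, adjusted p = 0.0312). TIMM13 differed by -0.15 (adjusted p = 0.216) with overlapping libraries. DESeq2 called 3 members here, the fit of the 30 and 240 min libraries alone 3, and spike-in scaling 0.

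**Figure D5:**
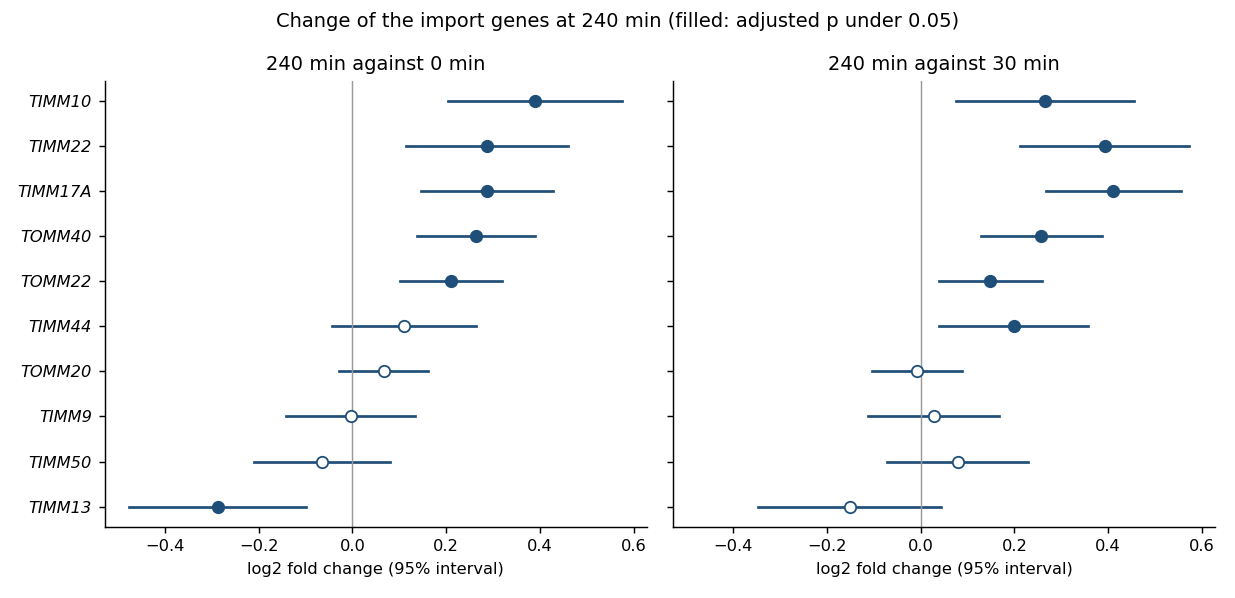
Log2 fold change of each member at 240 min against 0 min (left) and against 30 min (right), as points with 95% intervals. Filled points have an adjusted p under 0.05, and 5 members lie above and 1 below 0 among them on the left, and 6 above 0 on the right.

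Members with an IR peak moved in both directions at 240 min. Of the 3 with a peak, TIMM22 and TOMM40 rose and TIMM13 fell, and of the 7 without, TIMM10, TIMM17A and TOMM22 rose. Among all tested genes with a peak within 5 kb, 46.3% passed the test at 240 min in either direction. With 3 members no test of this split was made.

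TIMM22 was also followed relative to the family. Its log2 CPM minus the mean of the other 9 members was -1.48 and -1.49 (0 min), -1.56 and -1.60 (5 min), -1.47 and -1.38 (10 min), -1.60 and -1.53 (30 min), and -1.34 and -1.27 (240 min). The 240 min libraries were the highest and stood 0.14 and 0.22 above the mean at 0 min, so TIMM22 was also highest relative to the other members in these libraries. The measure was taken for TIMM22 alone. The other 9 include TIMM10 and TIMM17A, which rose by 0.39 and 0.29 at 240 min, and 3 of the 10 members had a negative difference then. The position of TIMM22 relative to the family is thus not shown to be particular to it, and it was not tested. Over the 10 libraries, log2 CPM of TIMM22 had a Pearson correlation of 0.945 with TIMM17A, 0.888 with TOMM40, 0.847 with TOMM22, 0.772 with TIMM44 and 0.768 with TIMM10. It was 0.509 with TIMM50, 0.215 with TOMM20, -0.018 with TIMM9 and -0.031 with TIMM13. The libraries share their times and their scaling in all these values, which are a description. Of 10378 other genes whose mean reached 5 CPM, 99.66% had a lower correlation with TIMM22 than TIMM17A had. This share was 97.36% for TOMM40, 94.53% for TOMM22, 88.36% for TIMM44, 87.97% for TIMM10 and 70.37% for TIMM50. It was 57.9% for TOMM20, 49.11% for TIMM9 and 48.65% for TIMM13. The correlation of TIMM10 was thus exceeded by many other genes over these libraries, and that of TIMM17A by few. Among those 10378 genes, the profiles most like that of TIMM22 were those of CSRP1 (0.973), TSPEAR-AS1 (0.967), CMAS (0.966), PTGES2 (0.966) and WARS (0.964).

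The wider import pathway was taken from a list of 34 other genes for TOM, TIM, sorting, oxidative folding and processing proteins, of which 33 passed the filter and PAM16 did not. None passed at 5, 10 or 30 min (0 at each). At an unadjusted p under 0.05 there were 5, 3 and 3 of the 33, beside the 14.3%, 5.13% and 8.12% of all genes. At 240 min against 0 min 10 were higher and 4 lower, beside the 41.0% of all genes called, and their median log2 difference was 0.078. Against 30 min 11 were higher and 1 lower, XPNPEP3 (-0.21, adjusted p = 0.0206), beside 38.2% of all genes called, 19.8% higher and 18.4% lower. The 14 called against 0 min and the 12 called against 30 min, of 33, are shares near those of all genes. More of them were higher than lower, which was not tested. The count at 240 min fell to 8 without the first 240 min library and to 9 without the second, and to 1 with spike-in scaling.

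Among the other import genes called at 240 min, the largest rise was that of TIMM8A, the partner of TIMM13, from 8.90 ± 0.31 to 15.2 ± 0.86 CPM (SD, n = 2), by 0.76 on the log2 scale (SE 0.097, adjusted p = 4.85e-06). TIMM8A and TIMM13 thus moved in opposite directions from the same 0 min libraries. GRPEL2, a nucleotide exchange factor of the matrix chaperone, rose by 0.50 (adjusted p = 4.58e-05), and CHCHD4, the oxidoreductase that folds the small TIM proteins, by 0.47 (adjusted p = 0.000253). The largest falls among those called were those of TIMM29, listed as C19orf52, a subunit of the TIM22 complex (-0.36, adjusted p = 0.0216), ROMO1, linked to the TIM23 complex (-0.28, adjusted p = 0.0174), and TOMM7, a small TOM subunit (-0.27, adjusted p = 0.00387). The fourth lower gene was the TOM receptor TOMM70A (-0.14, adjusted p = 0.0219). TIMM29 went from 8.25 ± 0.31 to 6.47 ± 0.0063 CPM (SD, n = 2) while TIMM22, the channel of the same complex, rose.

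IR peaks lay within 5 kb of 5 of the 34 other import genes, a share near the 15.7% of all genes tested. CHCHD4 had one over its start (score 818), TIMM21 of the TIM23 complex one of 2099, PMPCA of the processing peptidase one of 43 and XPNPEP3 one of 44. The deposited annotation gave the TIMM21 peak to FBXO15, that of PMPCA to SDCCAG3 and that of XPNPEP3 to DNAJB7. Each of these peaks also covered the start of the import gene. The peak counted for TOMM40L (score 32) ended at position -1264 from its start and was given to APOA2. At 240 min CHCHD4, TOMM40L (0.28, adjusted p = 0.00411) and PMPCA (0.14, adjusted p = 0.0419) rose, and TIMM21 (0.15, adjusted p = 0.149) and XPNPEP3 (-0.075, adjusted p = 0.407) did not pass the test.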

How the data were processed

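HepG2 RNA-seq (10 libraries, 5 times of insulin) and 1 IR ChIP-seq library were taken from the deposited tables. The authors trimmed reads with Trim Galore 0.6.4, aligned them to hg19 with STAR 2.6.1d and counted them on genes as reverse-stranded with featureCounts 1.6.4, and deposited raw counts. StringTie abundances were deposited by the authors in TPM, scaled for length and library size. IR peaks were called by the authors with MACS2 2.2.7.1 after BWA 0.7.17-r1188 and annotated with HOMER, and the deposited score of each peak was used as given. Whether the input library served as control is not given in the sources used here, and the input was not analysed here.

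Counts were tested with edgeR 4.0.16 in R 4.3.3: TMM, filterByExpr by time, its quasi-likelihood test fitted once to all 10 libraries with no block, and Benjamini-Hochberg adjustment over the 13852 genes tested, called at an adjusted p under 0.05. The filter keeps genes with enough counts in a group's number of libraries. The 92 ERCC rows (1.59% to 2.36% of counts) were left out of totals and tests. CPM is on TMM-scaled library sizes. Intervals cover 95%. A gene had an IR peak when one overlapped its body in the StringTie table extended by 5 kb. Named genes were the members, the 3 largest rises and falls called at 240 min and those with a peak among 34 other import genes, and the 5 genes most correlated with TIMM22. The members and lists were chosen with earlier results of these data known. Alternatives were DESeq2 1.42.0, other filters and scalings, the compared libraries alone, a replicate block, thinning, limma 3.58.1 on TPM after log2 with a pseudocount of 1 or 0.1, and each library left out. The edgeR step was tested on simulated data. Peaks and sequences were handled in Python 3.11.15 with pandas 2.3.3 and numpy 2.4.6, and figures drawn with matplotlib 3.10.9.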

Additional observations from a re-analysis of the deposited data

Results flagged for a closer look

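For 6 members the change from 0 min at 240 min differed from the change at 30 min by a test of the difference itself (edgeR's quasi-likelihood test, adjusted p under 0.05), which is the comparison of 240 with 30 min. The log2 differences were 0.39 for TIMM22, 0.27 for TIMM10, 0.20 for TIMM44, 0.41 for TIMM17A, 0.15 for TOMM22 and 0.26 for TOMM40. All 6 were higher, beside 19.8% of all genes called higher and 18.4% called lower. In each of them both libraries at 240 min lay above both at 30 min. This was so in 7 members, with TIMM50, which was not called, among them, and the reverse in 0. The 6 were picked by a test on the same libraries, and the share of all genes separated in this way was not computed. Groups of 2 libraries are too small to look for a library far from the others.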

How the results depend on the processing

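At 240 min against 0 min, 12 settings and 10 fits without 1 library were run. The count of members called was 5 or 6 in all settings but scaling by the ERCC spike-ins, with 0, and 3 to 6 with 1 library left out (3 without the second 0 min library). TIMM22 at 240 min was 0.16 with spike-in scaling (not called), and 0.23 to 0.33 with 1 library left out, below the threshold without the second library of 0 or of 240 min. The count of other import genes was 1 with spike-in scaling and 8 to 16 with 1 library left out. Against 30 min, the count of members was 3 with DESeq2, 3 with only the libraries compared and 0 with spike-in scaling. Without a filter on low counts 1 member, TIMM13, was called lower at 5 min, in 1 of the 12 settings. That setting called 144 of all genes at 5 min, 87 of them lower, where the reported fit called 0. With spike-in scaling the median of all genes was -0.083, -0.33, -0.13 and -0.12 at 5, 10, 30 and 240 min.

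Values that changed sign, none of them called, were small or came with spike-in scaling. With spike-in scaling they were TIMM9 -0.074, TOMM20 -0.046 and TOMM22 -0.081 at 5 min, TIMM22 -0.27, TIMM10 -0.25, TIMM44 -0.30, TOMM20 -0.25, TOMM22 -0.25 and TOMM40 -0.30 at 10 min, TIMM10 -0.0010, TOMM20 -0.055, TOMM22 -0.068 and TOMM40 -0.13 at 30 min, and TIMM44 -0.013 and TOMM20 -0.050 at 240 min. With thinning they were TIMM9 -0.055 and TOMM22 -0.0017 at 5 min, TIMM17A 0.0070 and TOMM40 -0.046 at 10 min, and TOMM40 -0.062 at 30 min. With limma on log2(TPM + 1), with and without a minimum mean TPM of 1, TOMM40 was -0.016 at 10 min and -0.026 at 30 min, and TIMM9 0.0012 at 30 min and 0.027 at 240 min. On log2(TPM + 0.1) these were -0.016, -0.026, 0.0012 and 0.027. TOMM22 at 5 min was -0.00043 with at least 10 counts in every library, -0.00062 with only the libraries compared and -0.0050 with upper-quartile normalization, which also put TIMM9 at 240 min at 0.023. TIMM17A at 10 min was 0.0027 without a filter and 0.0031 with only the libraries compared. With 1 library left out, values at 5 min ran from -0.024 to 0.025 for TOMM22, -0.043 to 0.060 for TIMM9 and -0.055 to 0.013 for TIMM10. At 10 min they ran from -0.093 to 0.010 for TIMM9, -0.092 to 0.075 for TIMM17A, -0.022 to 0.078 for TIMM44 and -0.036 to 0.070 for TOMM40. At 30 min they ran from -0.090 to 0.013 for TIMM9 and -0.050 to 0.052 for TOMM40, and at 240 min from -0.064 to 0.039 for TIMM9 and -0.18 to 0.024 for TIMM50. For these and for the calls lost, the cause was not tested.

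Replicate numbers did not pair the libraries: the differences between replicates correlated at -0.091 to 0.13 over 10 pairs of times, over 0.1 in 1 of them. With the replicate block 6 members were called at 240 min and TIMM17A at 10 min was 0.00070. Where a library was left out, the lone library of that time was assumed to vary like the other groups. With 2 libraries per time the precision is limited by their number.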
